A study of Mus musculus with 10 samples.

Results

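The genes described here are 9 Wnt target and feedback genes in mouse hepatocytes, the main cells of the liver parenchyma. They were taken by name from the count tables, where they are listed in lower case as tbx3, axin2, lgr5, rnf43, znrf3, nkd1, sp5, tcf7l2 and lgr4, and all 9 of 9 were found among 14812 gene entries. The list itself names genes and uses no threshold on a measured value, and it was drawn up with earlier results of these data known. Single hepatocytes came from C57BL/6 male mice aged 3 months that were fed chow without restriction, and were isolated by collagenase perfusion and a Percoll gradient under ketamine and xylazine anaesthesia. No group carried another treatment or an altered gene. The libraries, from version 2 of the 10x Chromium 3' kit, fell into 4 groups by Zeitgeber time (ZT), the hour within the light-dark cycle. They were 3 libraries at ZT0 (A, B and C), 2 at ZT6 (A and B), 3 at ZT12 (A, B and C) and 2 at ZT18 (A and B). The labels do not say which mice gave which library, so p-values measure the spread between these libraries.

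Wnt ligands and R-spondins reach hepatocytes mainly from endothelial cells of the central vein, and β-catenin signalling is known to set the identity of the hepatocytes around that vein. Ligand binding to Frizzled receptors halts a destruction complex, so that β-catenin accumulates and acts with TCF/LEF factors on target genes. Several targets then limit the pathway. Axin2 is a scaffold of the destruction complex, Nkd1 binds Dishevelled, Rnf43 and Znrf3 are membrane ubiquitin ligases that remove Frizzled, and Sp5 is a transcription factor that represses Wnt targets. Lgr4 and Lgr5 are R-spondin receptors that draw Rnf43 and Znrf3 away from Frizzled. Tcf7l2 is the TCF factor through which β-catenin acts in many tissues, and Tbx3 is a T-box transcriptional repressor known as a Wnt target.

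The start regions of 3 members are shown because these genes differed in their pattern along the lobule: Sp5 was found almost only in the parts nearest the central vein by the cell order, Axin2 declined in steps, and Lgr4 had no such decline. Each is the 250 bases before the annotated start on the plus strand, from RefSeq promoters of build GRCm38.p6. Capitals mark CTTTGA or CTTTGAT (or the reverse complements TCAAAG and ATCAAAG), letters of the TCF/LEF recognition motif, searched on both strands.
Sp5, chr2:70474673-70474922: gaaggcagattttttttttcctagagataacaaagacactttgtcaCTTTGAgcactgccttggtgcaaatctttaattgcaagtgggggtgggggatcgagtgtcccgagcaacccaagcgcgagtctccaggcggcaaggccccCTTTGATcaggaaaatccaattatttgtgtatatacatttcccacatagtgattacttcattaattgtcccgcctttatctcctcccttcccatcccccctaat
Axin2, chr11:108920099-108920348: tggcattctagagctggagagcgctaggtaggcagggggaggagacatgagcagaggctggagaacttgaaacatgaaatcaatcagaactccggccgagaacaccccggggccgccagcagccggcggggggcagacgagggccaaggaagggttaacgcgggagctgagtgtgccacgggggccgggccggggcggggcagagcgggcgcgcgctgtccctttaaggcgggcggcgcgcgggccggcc
Lgr4, chr2:109917397-109917646: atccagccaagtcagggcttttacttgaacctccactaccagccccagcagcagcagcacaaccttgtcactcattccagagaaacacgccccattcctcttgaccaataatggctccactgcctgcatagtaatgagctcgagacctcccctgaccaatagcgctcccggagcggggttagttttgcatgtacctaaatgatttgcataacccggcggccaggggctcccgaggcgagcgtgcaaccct
In Sp5 a CTTTGA begins 204 bases before the start and a CTTTGAT begins 104 bases before it. Neither motif was in the windows of 300 bases (250 before to 50 after the start) of Axin2, Lgr4, Nkd1, Rnf43 or Tcf7l2, of which Rnf43 and Tcf7l2 have entries for more than 1 start. Of 32851 RefSeq promoters of that length, 16.003% hold CTTTGA and 3.73% hold CTTTGAT, the shorter motif being part of the longer. A match describes the letters only. RefSeq promoter entries were matched for 6 of the 9 members, and Tbx3, Lgr5 and Znrf3 are named only. By GENCODE M21 (GRCm38) Tbx3 lies on chromosome 5 at 119670669 to 119684724, plus strand, and an antisense gene, Tbx3os1, overlaps it. The counts do not state a use of strand, so reads from this pair may not be told apart, and Tbx3os1 was listed with 116 UMIs.

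The libraries held 710 to 2860 cells each, 18378 in all, with 1454623 to 7144803 UMIs (unique molecular identifiers, which count tagged RNA molecules) per library and 1588 to 2662 UMIs in the median cell. Levels are given as CPM, the UMIs of a gene per 1000000 UMIs of the same cells. The 8 hepatocyte markers summed to 37865 to 67202 CPM per library. The 10 endothelial markers summed to 4.12 to 19.9 CPM with Clec4g at 0, and the 8 macrophage markers to 0 to 6.63 CPM with Clec4f, C1qa and C1qb at 0. Stellate markers summed to 3.44 to 17.7 CPM, cholangiocyte markers to 0.773 to 32.5 CPM and erythroid markers to 72.2 to 361 CPM, the last highest at ZT18. Among the erythroid markers Alas2 had 3478 UMIs over all libraries and the measured haemoglobin genes 119 to 609 each. Among the cholangiocyte markers Sox9 had 565 UMIs and the other measured ones 2 to 5 each. Over all libraries these 2 sums therefore rest mostly on Alas2 and Sox9. The markers behind the highest erythroid sum, at ZT18, were not told apart. Lymphocyte and neutrophil markers reached 0.609 and 7.70 CPM. No cell of one library had the same counts as a cell of another, and barcodes were replaced by cell numbers in the tables, so shared barcodes could not be counted.

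ZT0C, ZT12A and ZT12C stood apart from the other libraries. They held 619 to 1321 CPM of Glul, which encodes glutamine synthetase and marks the hepatocytes touching the central vein, against 86.0 to 245 CPM in the other 7. Cells in which Glul took at least 0.5% of UMIs were 4.08% to 10.5% of cells in these 3 libraries and 0% to 2.19% in the others. ZT0C alone held 13.7% of all UMIs but 33.0% of those of Tbx3, 48.9% of Axin2, 50.0% of Lgr5, 50.9% of Sp5 and 33.3% of Nkd1. Its share was 21.0% for Rnf43, 20.5% for Znrf3, 16.3% for Tcf7l2 and 15.6% for Lgr4. Values without these 3 libraries stand beside the calls of members by zone and in Glul-rich cells.

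The members were detected at low counts. Over all cells there were 503 UMIs of Tbx3 in 459 cells, 139 of Axin2 in 134, 124 of Lgr5 in 116, 420 of Rnf43 in 408 and 249 of Znrf3 in 248. Nkd1 had 21 UMIs in 21 cells and Sp5 had 55 in 54. Tcf7l2 had 1932 UMIs in 1791 cells and Lgr4 2118 in 1948. Most detecting cells held a single molecule, so no level is given per cell, and all values below are sums over many cells. Intervals and floors cover counting error only.

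Position in the lobule was read from 16 landmark genes that include no member. Some landmarks are themselves metabolic genes known as Wnt-dependent and pericentral. Of the 16 genes on that list, which is used for comparison further on, 11 are neither landmarks nor members. The order is therefore not independent of the pathway, and its part in the differences of members along the order and between zones was not tested. In each library the cells were ordered by the mean z-score of 8 periportal landmarks minus that of 8 pericentral ones, and cut into 8 equal parts, with part 1 nearest the central vein by the order. When each set of landmarks was split by odd and even numbers, both scores of a cell correlated with r of 0.683 to 0.847 within libraries. The median depth of the 8 parts was 1879 to 2160 UMIs per cell.

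Along this order 6 members (Tbx3, Sp5, Lgr5, Axin2, Nkd1 and Rnf43) were concentrated at the pericentral end and 3 (Znrf3, Tcf7l2 and Lgr4) were present throughout. The split was not sharp for the 2 ligases. Rnf43 was also found in all 8 parts, with 27.9% of its UMIs in part 1, and Znrf3 had 22.5% there. Among the transcription factors induced by the pathway, Sp5 was the most restricted by count, with 40, 11, 3, 0, 1, 0, 0 and 0 UMIs in parts 1 to 8. Part 1 held 72.7% of its UMIs, at 7.35 CPM (95% exact Poisson interval 5.25 to 10.0), and each part at 0 allows at most about the 3-count floor, 0.507 to 0.580 CPM. Tbx3 fell in steps over the same parts, with 232, 125, 69, 38, 21, 9, 9 and 0 UMIs. Its level was 42.6 CPM in part 1 (37.3 to 48.5), 22.7 in part 2, 12.8 in part 3 and 7.30 in part 4. The intervals of parts 1, 2 and 3 do not overlap.

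The feedback inhibitors did not share one profile. Axin2 declined over all 8 parts, with 55, 36, 18, 12, 9, 4, 3 and 2 UMIs, from 10.1 CPM (7.62 to 13.2) in part 1 to 0.338 (0.0409 to 1.22) in part 8. Nkd1 had 17 of its 21 UMIs in part 1, none in parts 2 and 3, and 4 in the remaining parts. Rnf43 had 117, 65, 62, 57, 34, 31, 20 and 34 UMIs, a drop after part 1 from 21.5 (17.8 to 25.8) to 11.8 CPM (9.10 to 15.0) and then a shallow decline to 3.56 (2.18 to 5.50) in part 7. Znrf3, the other ligase of the pair, had 56, 23, 31, 30, 22, 24, 31 and 32 UMIs. Its level was 10.3 CPM (7.78 to 13.4) in part 1 and 4.17 to 5.76 in parts 2 to 8, whose intervals overlap one another.

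The R-spondin receptors differed from each other as well. Lgr5 had 81, 25, 11, 4, 0, 2, 1 and 0 UMIs, so that part 1 held 65.3% of them at 14.9 CPM (11.8 to 18.5). Lgr4 had 238, 295, 266, 285, 256, 274, 255 and 249 UMIs, at 42.0 to 54.7 CPM. Tcf7l2, the transcription factor of the pathway, had 224, 225, 214, 231, 242, 234, 286 and 276 UMIs, at 39.6 to 51.0 CPM and highest in part 7. Part 1 lay above the pooled parts 2 to 8 in all 10 libraries for Tbx3, Lgr5 and Rnf43, in 9 for Axin2, in 8 for Sp5, in 7 for Znrf3 and Nkd1, in 4 for Tcf7l2 and in 2 for Lgr4.

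**Figure D1:**
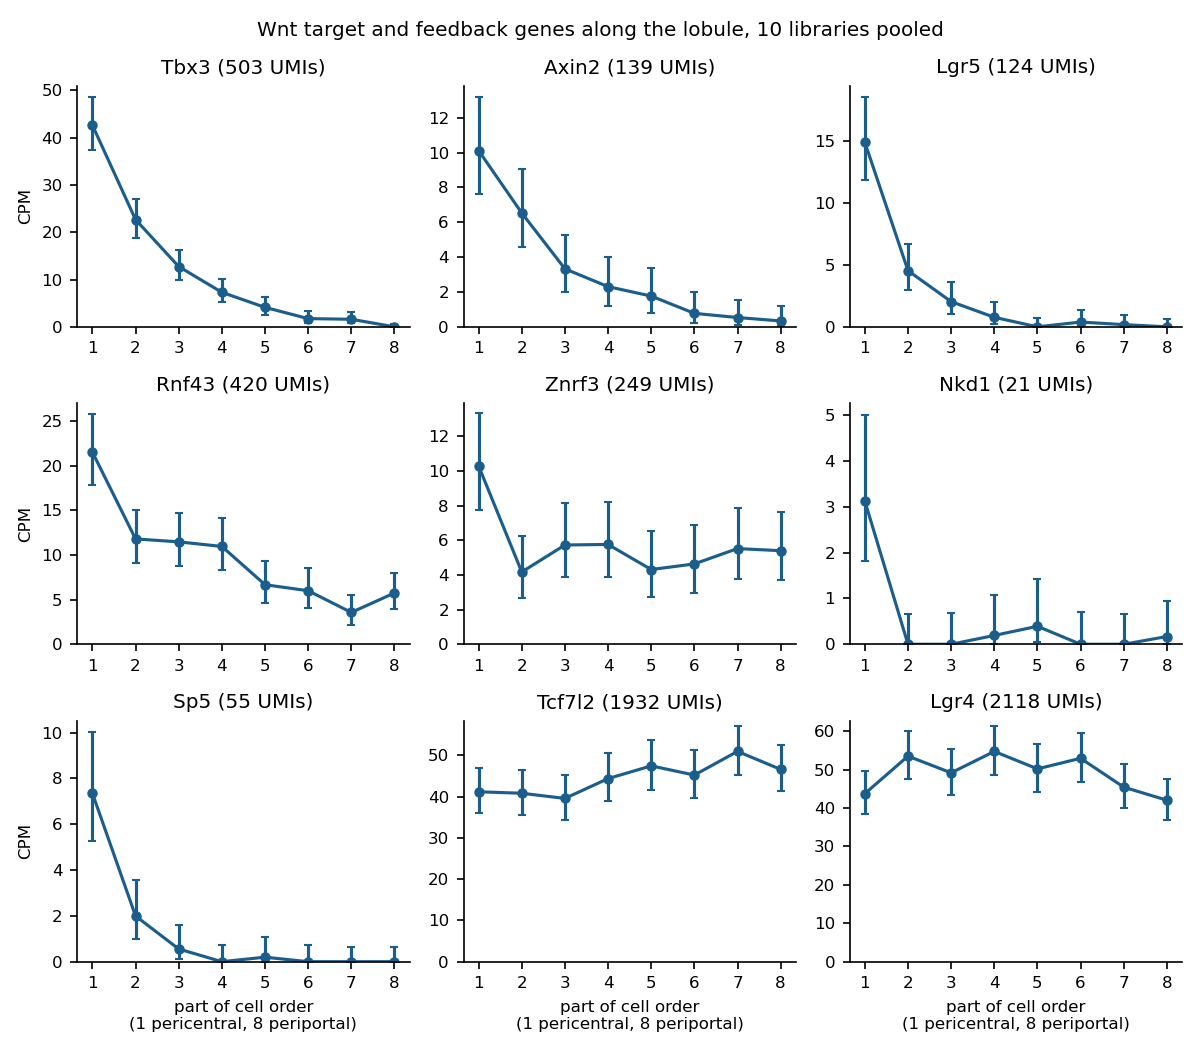
Level of each member (CPM, y axis, linear and starting at 0) in 8 equal parts of the cell order (x axis, 1 pericentral to 8 periportal), 10 libraries pooled. Bars are 95% exact Poisson intervals for counting error. Tbx3 falls from 42.6 CPM to 0, while Lgr4 stays between 42.0 and 54.7.

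The outer of 3 equal parts of the order, here the pericentral and the periportal zone, were then compared within libraries. The test was edgeR's quasi-likelihood test on summed UMIs with the library as a block, for genes with at least 30 UMIs over the sums, with Benjamini-Hochberg adjustment over 10375 genes and a threshold of 0.05. Of 8 members tested 6 differed between zones, against 22.4% of all genes tested. Tbx3, Lgr5, Sp5 and Axin2 passed the filter through their pericentral UMIs, with 14, 1, 0 and 8 periportal UMIs, which limits what this count shows. Of these, 5 were higher in the pericentral zone (Tbx3, Lgr5, Sp5, Axin2 and Rnf43; 11.7% of all genes) and 1 in the periportal zone (Tcf7l2; 10.8% of all genes). Leaving out each library in turn gave 6 of the members, or 5 without ZT0C, where Sp5 fell below the filter.

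Tbx3 measured between 5.13 and 63.8 CPM in the pericentral zone of the 10 libraries, with a median of 19.2, and between 0 and 2.31 CPM in the periportal zone, with a median of 0.228. Every library was higher in the pericentral zone, and the ranges did not overlap. The pooled counts were 409 against 14 UMIs, a ratio of 30.1 (95% exact interval 17.7 to 55.5). The log2 difference, periportal minus pericentral, was -4.65 ± 0.24 (SE; edgeR adjusted p = 2.3e-19), and -4.51 without ZT0C, ZT12A and ZT12C (edgeR adjusted p = 3.3e-20). All 14 periportal UMIs came from ZT0 and ZT6, and the 5 libraries of ZT12 and ZT18 had none there.

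Sp5 measured 0 to 12.5 CPM in the pericentral zone, with a median of 2.51, and 0 in the periportal zone of every library. It was absent from both zones in ZT18A and ZT18B. The pooled counts were 53 against 0 UMIs, at least 18.2-fold higher in the pericentral zone when the periportal sum is set to the floor of 3 counts over the group. edgeR called it (adjusted p = 1.2e-06), and DESeq2 did not (adjusted p = 0.195). Without ZT0C it was below the filter.

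Lgr5 measured 0.856 to 27.8 CPM in the pericentral zone, with a median of 4.42. It had 1 UMI in the periportal zone, in ZT6A. The pooled ratio, 114 against 1 UMI, was 117 with an interval of 20.6 to 4675, and the edgeR adjusted p was 1.4e-11. All 10 libraries were higher in the pericentral zone. ZT0C held 58 of the 114 pericentral UMIs. The fitted log2 difference was -4.53 without ZT0C, ZT12A and ZT12C (edgeR adjusted p = 8.0e-07).

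Axin2 measured 0 to 21.6 CPM in the pericentral zone, with a median of 4.69, and 0 to 1.63 CPM in the periportal zone, with a median of 0.427. The pericentral zone was higher in 9 libraries, and ZT12A had no Axin2 UMI in either zone. The ratio of 101 to 8 UMIs was 13.0 (6.35 to 30.9), and the log2 difference was -3.30 ± 0.37 (SE; edgeR adjusted p = 3.0e-09). It was -3.06 without ZT0C, ZT12A and ZT12C (edgeR adjusted p = 3.1e-06).

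Rnf43 measured 3.42 to 26.1 CPM in the pericentral zone, with a median of 16.7, and 2.17 to 8.43 CPM in the periportal zone, with a median of 4.20. The pericentral zone was higher in 9 libraries and lower in ZT18B. The log2 difference was -1.55 ± 0.21 (SE; edgeR adjusted p = 1.0e-07), or -1.33 with ZT0C, ZT12A and ZT12C left out (edgeR adjusted p = 8.6e-06), and the ratio of 220 to 70 UMIs was 3.23 (2.46 to 4.30). Znrf3 measured 2.38 to 11.98 CPM in the pericentral zone and 1.51 to 8.77 in the periportal zone, and these ranges overlapped over most of their width. Its log2 difference of -0.22 ± 0.23 (SE; edgeR adjusted p = 0.575) did not pass the threshold, and the ratio of 99 to 80 UMIs was 1.27 (0.939 to 1.73). The sign turned without ZT0C, ZT12A and ZT12C (log2 difference 0.0502).

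Tcf7l2 measured 24.8 to 72.0 CPM in the pericentral zone, with a median of 37.9, and 29.8 to 75.4 CPM in the periportal zone, with a median of 47.6. It was higher in the periportal zone in 9 libraries and lower in ZT0C. The log2 difference was 0.33 ± 0.09 (SE; edgeR adjusted p = 0.0072), or 0.39 with those 3 libraries left out (edgeR adjusted p = 0.0043). The call was lost when libraries were scaled by their totals alone (adjusted p = 0.0677) and when parts 1 and 8 were compared (adjusted p = 0.108). Scaling by totals moved the median of all genes to -0.10 and the share of calls in the periportal direction from 48.0% of 2329 to 29.0% of 2645.

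Lgr4 measured 25.5 to 76.7 CPM on the pericentral side and 37.7 to 84.2 CPM on the periportal side. Its log2 difference was 0.04 ± 0.09 (SE; edgeR adjusted p = 0.804), and the ratio of 710 to 697 UMIs was 1.05 (0.943 to 1.17). The sign turned with library totals alone (-0.0498) and without ZT18A (-0.0130). Nkd1 was below the filter of the fit, with 17 pericentral UMIs against 1 periportal UMI, a ratio of 17.5 (2.74 to 731). It was higher in the pericentral zone in 7 libraries and absent from both zones in 3, with a two-sided exact sign-flip permutation p of 0.0156, unadjusted, which is the smallest that 7 non-zero differences can give.

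Markers of other cell types were found in both zones. The endothelial list summed to 2.18 to 19.7 CPM per library on the pericentral side and 1.75 to 21.8 CPM on the periportal side, and the cholangiocyte list to 0 to 13.4 and 1.09 to 48.1 CPM. The erythroid list was the most abundant, at 76.2 to 139 CPM pericentral and 61.9 to 98.1 CPM periportal, and the neutrophil list reached 23.2 CPM pericentral and 1.51 CPM periportal. Over all cells the erythroid and cholangiocyte sums were mostly Alas2 and Sox9, and the other listed markers of these types were far lower. Stellate markers summed to 3.13 to 20.4 and 0 to 23.9 CPM, macrophage markers to at most 7.76 and 6.02 CPM, and lymphocyte markers to at most 1.57 and 1.81 CPM. Their part in the zone differences was not tested.

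**Figure D2:**
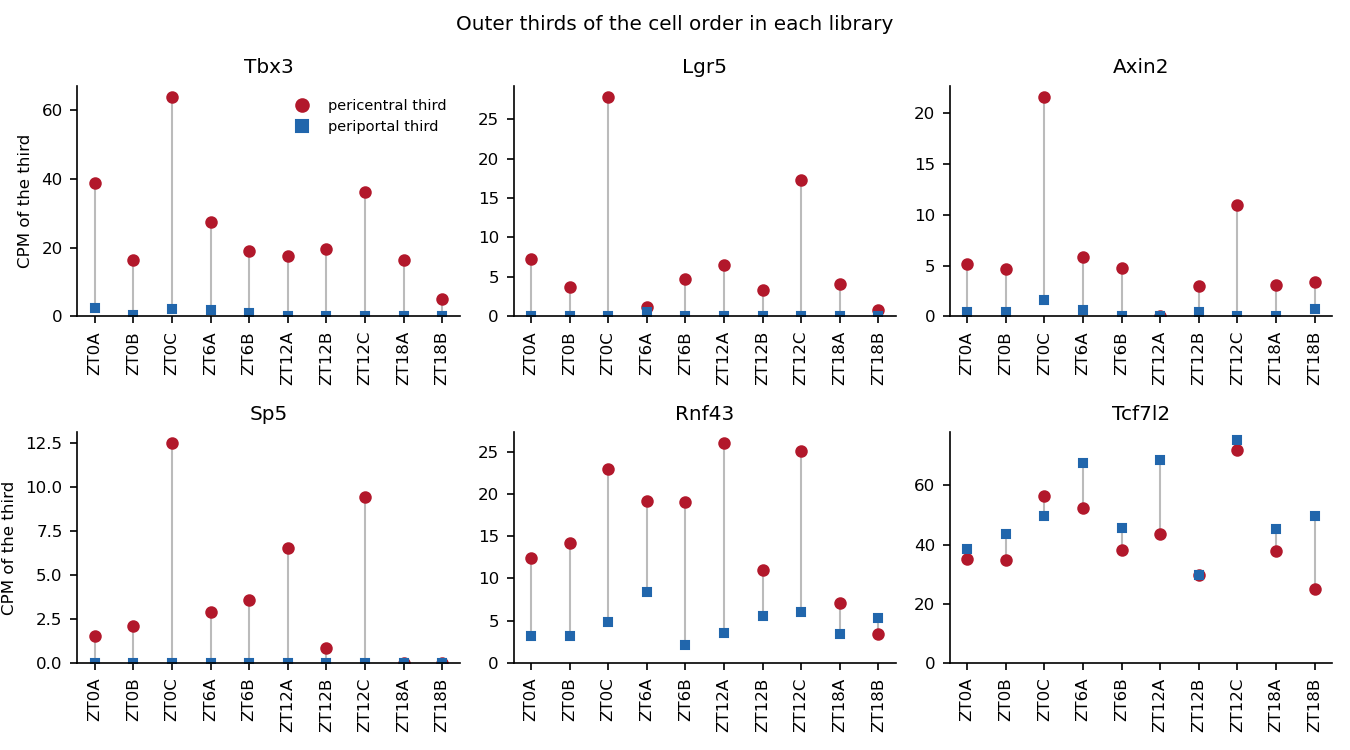
CPM (y axis, linear, starting at 0) in the pericentral (circles) and periportal zone (squares) of each of the 10 libraries (x axis), joined by a line, for 6 members. The periportal squares of Tbx3 stay at or under 2.31 CPM in every library, and those of Tcf7l2 lie above the circles in 9.

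Cells rich in Glul stand for the hepatocytes next to the central vein, and the question was whether members were higher there than in other pericentral cells. The 5% of cells of each library with the largest Glul share of their UMIs (36 to 143 cells) were compared with the other cells of the pericentral zone in the same library. In 7 libraries the lowest Glul share in that class was 0.0586% to 0.0776%, about 1 UMI in a cell, while in ZT0C, ZT12A and ZT12C it was 0.224% to 1.17%. The class is therefore mixed in the 7, and 65.4% to 100% of its cells lay in the pericentral zone. Median depth was 1274.5 to 2464 UMIs in Glul-rich cells and 1549.5 to 3124 in the others.

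Of 8 members tested, 3 were higher in Glul-rich cells (Sp5, Lgr5 and Tbx3), against 0.975% of the 9540 genes tested. Sp5 passed the filter through its 30 UMIs in Glul-rich cells, with 23 in the others, which limits what this count shows. edgeR called 0 in the lower direction, against 2.73% of genes, where Lgr4 had an unadjusted p under 0.05, and 3.7% of genes were called in either direction. DESeq2 gave an adjusted p for 3 of the 8 members, and called 1 of them, Tbx3. The balance of calls depended on scaling. With TMM factors 26.3% of all calls were higher in Glul-rich cells and the median gene stood at -0.11, while with RLE factors 59.8%, with library totals 66.7% and with DESeq2 59.4% were higher.

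Sp5 measured 0 to 54.4 CPM in Glul-rich cells, with a median of 7.62, and 0 to 5.43 CPM in other pericentral cells, with a median of 1.22. It was higher in Glul-rich cells in 7 libraries, lower in ZT12B and absent from both classes in ZT18A and ZT18B. The log2 difference was 2.75 ± 0.44 (SE; edgeR adjusted p = 7.3e-08). ZT0C supplied 17 of the 30 Sp5 UMIs in Glul-rich cells, and without ZT0C the gene was below the filter, so no fit without it was made. Without ZT0C, ZT12A and ZT12C the pooled counts were 7 UMIs in Glul-rich cells and 11 in the others, a ratio of 4.61 (95% exact interval 1.51 to 13.0), against 8.98 (5.04 to 16.2) over all 10 libraries. Tbx3 measured 0 to 131 CPM in Glul-rich cells, with a median of 43.1, against 5.60 to 51.8 CPM, with a median of 16.3. The log2 difference was 1.07 ± 0.19 (SE; edgeR adjusted p = 4.8e-06), higher in 8 libraries and lower in ZT12C and ZT18B. Without ZT0C, ZT12A and ZT12C it was 1.03 (edgeR adjusted p = 0.0048).

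Lgr5 measured 4.75 to 41.6 CPM in Glul-rich cells, with a median of 14.3, against 0 to 25.4 CPM, with a median of 2.76. All 10 libraries were higher in Glul-rich cells. The log2 difference was 1.20 ± 0.37 (SE; edgeR adjusted p = 0.034), and the call was lost without any one of 7 libraries (ZT0B, ZT6A, ZT6B, ZT12A, ZT12B, ZT18A or ZT18B) and with 10% of cells in the class. Without those libraries the edgeR adjusted p was 0.0539 to 0.124, at log2 differences of 1.11 to 1.21. Without ZT0C, ZT12A and ZT12C the difference was 1.82 (edgeR adjusted p = 0.0426). With cells of at least 2000 UMIs alone the difference was 0.73 (edgeR adjusted p = 0.516).

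The ligases and Axin2 did not pass the threshold. On the log2 scale Znrf3 differed by 0.83 ± 0.40 (SE; edgeR adjusted p = 0.323), Rnf43 by 0.55 ± 0.28 (0.382) and Axin2 by 0.34 ± 0.43 (0.842). Tcf7l2 (-0.23 ± 0.19) and Lgr4 (-0.44 ± 0.18; edgeR adjusted p = 0.186) were not called either. For Lgr4 8 libraries were lower in Glul-rich cells.

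**Figure D3:**
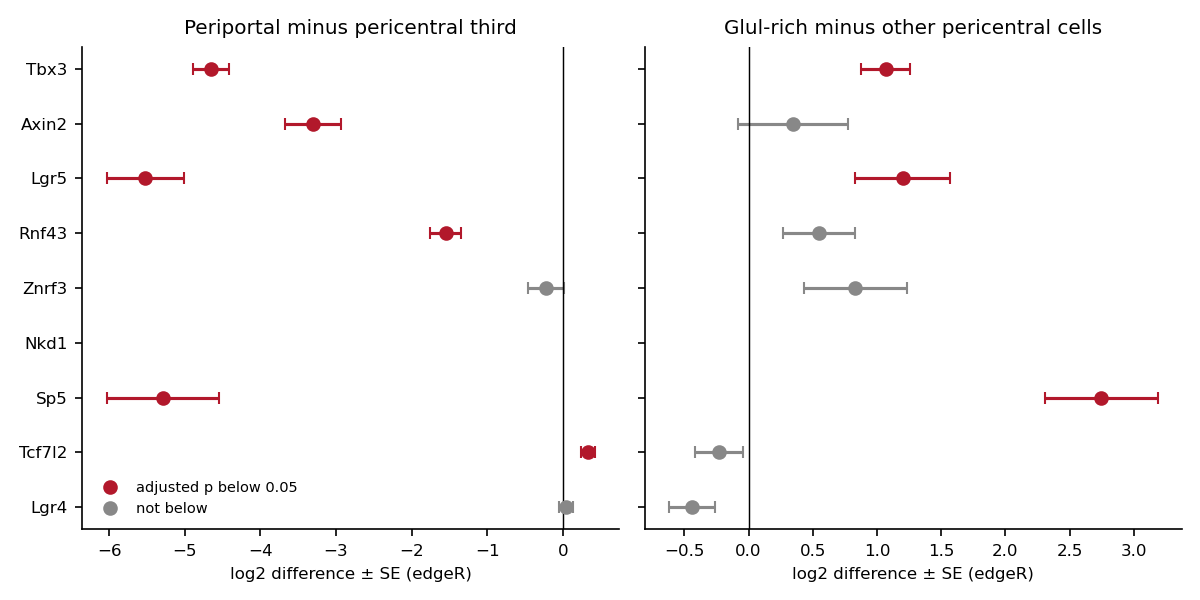
Fitted log2 differences ± SE (x axis) of the 8 tested members (y axis) between zones (left) and between Glul-rich and other pericentral cells (right), coloured by the adjusted threshold; Nkd1 was below the filter of both fits. Sp5 stands at 2.75 in the right panel. In the left panel the values of Sp5 and Lgr5 rest on 0 and 1 periportal UMI.

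Because the 5% class holds cells with 1 Glul UMI, a class with at least 0.5% of UMIs from Glul was added after the data had been seen, in the 9 libraries with 10 or more such cells. Libraries differ both in the size of this class and in the level of the members, so ratios were taken within libraries (Mantel-Haenszel) and set beside those pooled over libraries. Nkd1 had 12 UMIs in the class and 5 in other pericentral cells, a ratio of 23.3 within libraries and 31.3 pooled (95% exact interval of the pooled ratio 10.3 to 114). Without ZT0C, ZT12A and ZT12C the counts of Nkd1 were 4 and 3, a pooled ratio of 37.3 (6.30 to 254).

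The other members had smaller ratios in this class. Within libraries they were 6.97 for Sp5, 3.12 for Znrf3, 2.69 for Tbx3, 2.56 for Lgr5, 2.09 for Rnf43, 1.87 for Axin2, 0.831 for Tcf7l2 and 0.703 for Lgr4. Pooled, the ratios of Sp5 and Lgr5 were larger, at 11.7 (6.52 to 20.7) and 4.72 (3.0005 to 7.25). Pooled without ZT0C, ZT12A and ZT12C, Tbx3 stood at 3.71 (2.41 to 5.52), Lgr5 at 3.88 (1.19 to 9.92) and Rnf43 at 3.10 (1.65 to 5.41). The intervals of Sp5 at 3.49 (0.390 to 14.9), Znrf3 at 2.79 (0.870 to 6.97) and Axin2 at 1.30 (0.153 to 4.99) included a ratio of 1. In the fit by library 4 members were called, Sp5, Tbx3, Lgr5 and Znrf3, and Axin2 and Rnf43 were not (edgeR adjusted p = 0.431 and 0.104). More genes of all were called in this fit than in the 5% class, and their share of the genes tested is not given. The count of members therefore has no background here. Znrf3 stood at a log2 difference of 1.41 (edgeR adjusted p = 0.0217). Without ZT0C, ZT12A and ZT12C, in the 5% class, Znrf3 was at 0.20 (edgeR adjusted p = 0.956). ZT0C and ZT12C supply 102 and 118 cells of the class at the fixed share.

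Over the day, no member passed the rhythm test. A wave of 24 h (cosine and sine terms, 2 df) was fitted to whole-library sums with edgeR's quasi-likelihood test. It called 0 of 8 members, against 4.61% of 10790 genes, and DESeq2 also called 0. At an unadjusted p under 0.05 it had 0 members, against 2082 of the 10790 genes. A level over a whole library moves with the number of cells from around the central vein as well as with the RNA per cell, and these cannot be told apart in the sums. Glul itself, at 786 CPM in ZT0C and 156 CPM in ZT0A and ZT0B, shows how far libraries of 1 time differed.

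Tbx3 measured 14.3, 7.88 and 28.0 CPM at ZT0, 12.2 and 8.50 at ZT6, 6.19, 7.42 and 16.1 at ZT12, and 5.97 and 1.89 at ZT18. Both ZT18 libraries lay below the other 8. The fitted amplitude, the log2 distance from mean to peak, was 0.77 and the peak fell at ZT 3.09, with an edgeR adjusted p of 0.297. With the letter as a replicate block it was 0.72 (edgeR adjusted p = 0.0847), and in the pericentral zone alone 0.66 (0.432).

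Rnf43 measured 7.51, 7.88 and 14.9 CPM at ZT0, 13.0 and 10.4 at ZT6, 11.0, 8.40 and 16.6 at ZT12, and 5.66 and 4.85 at ZT18. Here too both ZT18 libraries lay below the other 8. The amplitude was 0.50 and the peak fell at ZT 6.07, with an edgeR adjusted p of 0.338. Without both ZT18 libraries the amplitude fell to 0.13 (0.959). Over the alternatives it reached 0.70, and the lowest edgeR adjusted p was 0.0826.

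Axin2 measured 1.92, 2.08 and 11.5 CPM at ZT0, 2.64 and 1.93 at ZT6, 0.687, 1.26 and 5.02 at ZT12, and 0.943 and 1.35 at ZT18. Lgr5 measured 2.62, 1.49 and 10.5 CPM at ZT0, 0.813 and 1.93 at ZT6, 2.06, 1.12 and 6.02 at ZT12, and 1.26 and 0.269 at ZT18. In both genes ZT0C and ZT12C were the highest libraries. Both ZT18 libraries lay below all ZT0 libraries in both genes, and below both ZT6 libraries in Axin2, and the other pairs of times overlapped. Amplitudes were 0.89 for Axin2 (edgeR adjusted p = 0.361) and 0.71 for Lgr5 (0.593). Without ZT0C they were 0.42 (edgeR adjusted p = 0.727) and 0.21 (0.958), and without ZT12C 1.30 (0.151) and 1.27 (0.240). With ZT0C, ZT12A and ZT12C all left out they were 0.60 for Axin2 (edgeR adjusted p = 0.387) and 0.68 for Lgr5 (0.533).

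Sp5 had 3, 5 and 28 UMIs at ZT0, 5 and 3 at ZT6, 3, 2 and 6 at ZT12 and 0 in both ZT18 libraries. At ZT18 a count of 0 in the 6892108 UMIs of the time allows up to 0.435 CPM, while ZT0A, ZT0B and ZT12B measured 0.524, 0.743 and 0.280 CPM. Its amplitude of 0.95 did not pass (edgeR adjusted p = 0.659). Nkd1 had 2, 3 and 7 UMIs at ZT0, 0 and 1 at ZT6, 1, 2 and 3 at ZT12 and 1 and 1 at ZT18, too few for the fit.

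Znrf3, Lgr4 and Tcf7l2 varied least among libraries for their level. Znrf3 measured 6.05 ± 2.26 CPM at ZT0 (SD, n = 3), 4.96 ± 0.46 at ZT6 (n = 2), 6.83 ± 1.85 at ZT12 (n = 3) and 4.94 ± 0.13 at ZT18 (n = 2), with an amplitude of 0.04 (edgeR adjusted p = 0.992). Lgr4 measured 51.5, 43.1 and 55.9 CPM at ZT0, 48.1 and 37.9 at ZT6, 80.4, 45.2 and 68.3 at ZT12, and 39.9 and 44.2 at ZT18, with an amplitude of 0.10 (0.878). Tcf7l2 measured 35.8, 37.6 and 53.2 CPM at ZT0, 63.0 and 42.5 at ZT6, 52.9, 34.6 and 72.8 at ZT12, and 40.9 and 37.7 at ZT18, with an amplitude of 0.19 (0.669). All ZT12 libraries lay above both ZT18 libraries in Znrf3 and Lgr4, as they did above both ZT6 libraries in Znrf3, and both ZT6 libraries lay above both ZT18 libraries in Tcf7l2. The other pairs of times overlapped in these 3 genes.

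**Figure D4:**
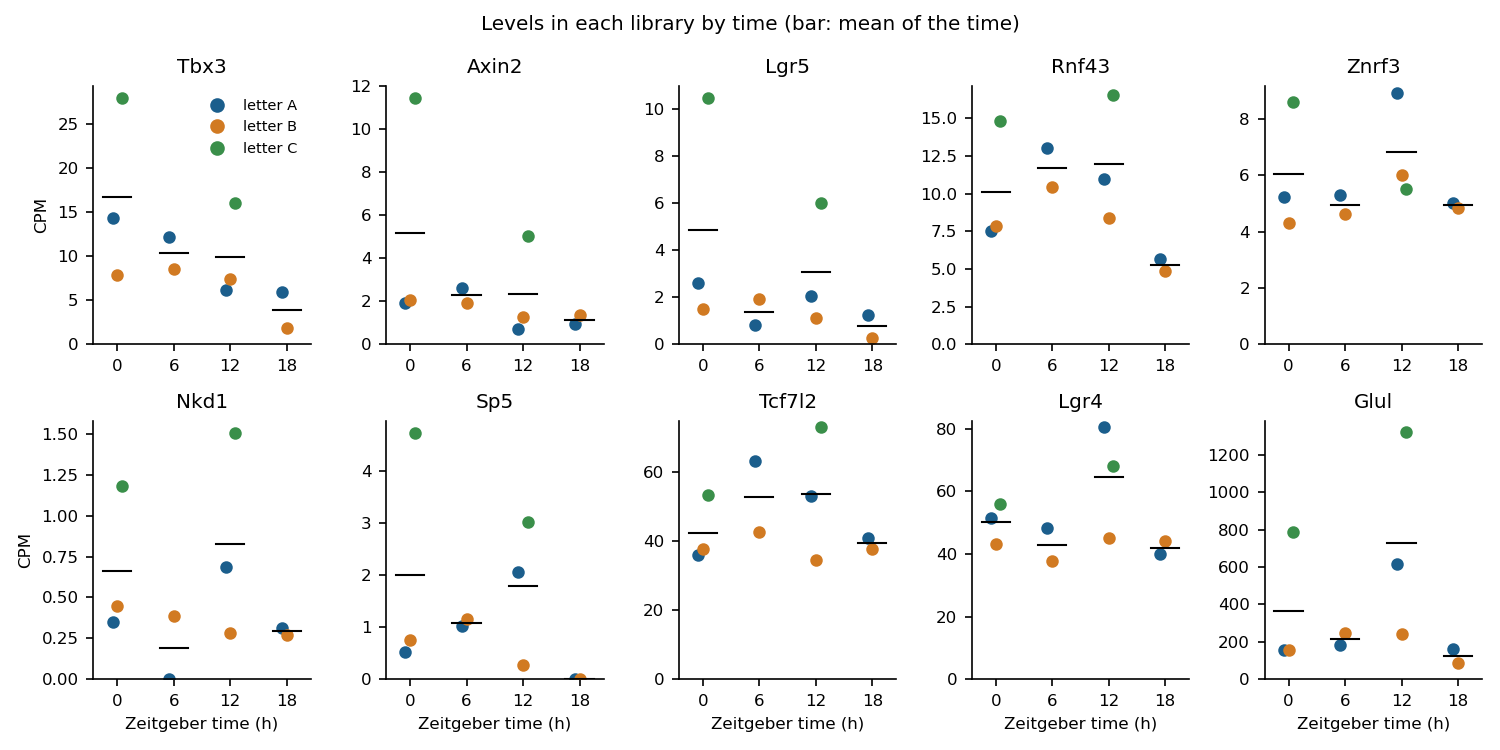
CPM (y axis, linear, starting at 0) of each member and of Glul in every library against Zeitgeber time (x axis, h), coloured by the letter of the library, with a bar at the mean of each time. The C libraries are highest for Axin2 and Lgr5 (11.5 and 10.5 CPM at ZT0), and Sp5 is at 0 in both ZT18 libraries.

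The letters in the titles were taken to pair the ZT0 and ZT12 libraries. The change from ZT0 to ZT12 is described here within each letter, with no test of its own. Tbx3 went from 14.3 to 6.19 CPM in A, 7.88 to 7.42 in B and 28.0 to 16.1 in C. Axin2 and Lgr5 were also lower at ZT12 in all 3 letters. Rnf43 and Lgr4 were higher at ZT12 in all 3, and Znrf3, Sp5, Tcf7l2 and Nkd1 went both ways. In B, Lgr5 rested on 10 UMIs at ZT0 and 8 at ZT12. How many of all genes moved one way in all 3 letters was not counted, so these directions have no background beside them. Letters share a sample index column at these times, while both ZT6 libraries share the column of ZT0B and ZT12B. Both ZT18 libraries have a column that no other library has. Low levels at ZT18, as in Tbx3 and Rnf43, therefore cannot be told apart from a difference tied to that column.

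Whether the zone difference itself changed over the day was asked with a 2-df interaction test. It called 0 of 8 members, against 0.0771% of 10375 genes (8 genes). Sp5 and Lgr5 had 0 and 1 periportal UMIs in all, so a change in their zone difference could hardly be measured. Their lack of a call says nothing of such a change. DESeq2 called 0 members. By edgeR 1 member, Tbx3, had an unadjusted p under 0.05, against 596 of the 10375 genes. The pericentral level of Tbx3 was 39.6 ± 23.7 CPM at ZT0 (SD, n = 3), 23.2 ± 5.90 at ZT6 (n = 2), 24.3 ± 10.2 at ZT12 (n = 3) and 10.7 ± 7.90 at ZT18 (n = 2). Its periportal level was 1.65 ± 1.03, 1.45 ± 0.51, 0 and 0 CPM. The interaction had an edgeR adjusted p of 0.697. Rnf43 in the pericentral zone measured 16.6 ± 5.66, 19.1 ± 0.13, 20.7 ± 8.45 and 5.28 ± 2.63 CPM at the same times, against 3.78 to 5.30 CPM in the periportal zone, with an edgeR adjusted p of 0.964 for the interaction.

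Other parts of the pathway were counted from lists by role. Of 16 receptors and co-receptors 11 were measured and 10 tested; 2 were pericentral and 0 periportal, against 11.7% and 10.8% of all genes tested, with a median log2 difference of -0.12, where the median of all genes is near 0. A count of 2 among 10 is close to that background. For the periportal direction 1 had an unadjusted p under 0.05, and DESeq2 called 0. Fzd8 had a pericentral level of 13.9 ± 5.46 CPM against a periportal 6.37 ± 3.10 (SD, n = 10; log2 difference -0.90, edgeR adjusted p = 0.0010). Fzd7, another Frizzled, was at -0.51 (0.035), a call lost in 9 of 22 alternatives, among them without ZT0C, ZT12B, ZT12C or ZT18B. The most abundant receptors, Ryk (-0.24) and Lrp6 (0.24), did not pass.

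Of 24 cytoplasmic and nuclear parts 20 were tested, and 4 were periportal and 4 pericentral, with a median of -0.04. Over all genes tested 10.8% were periportal and 11.7% pericentral. The periportal ones were Ctnnbip1, an inhibitor of the β-catenin and TCF interaction, with a pericentral level of 3.60 ± 2.05 CPM against a periportal 49.4 ± 16.9 (SD, n = 10; log2 difference 3.71), Tcf7l1 (2.38), Tle4 (1.39) and Dvl1 (0.39). Tcf7l1 is a TCF factor known chiefly as a repressor, and Tle4 is a co-repressor of the Groucho family. The pericentral ones were Tle1 (-0.62), Bcl9l, a β-catenin co-activator (-0.71), Gsk3b, a kinase of the destruction complex (-0.32), and Tnks, which marks Axin for turnover (-0.98). The highest edgeR adjusted p of these 8 was 0.0321, for Tnks. Tnks was lost in 13 of 22 alternatives, 6 of them single libraries left out (ZT0A, ZT0B, ZT0C, ZT6A, ZT12C or ZT18A), Dvl1 in 3 and Gsk3b in 2. Ctnnb1, which encodes β-catenin, stood at 0.02 (edgeR adjusted p = 0.903).

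Of 16 further feedback inhibitors and antagonists 5 were measured and 2 tested. Notum, a secreted enzyme that inactivates Wnt ligands, had a pericentral level of 18.6 ± 4.12 CPM against a periportal 3.97 ± 2.46 (SD, n = 10), higher in the pericentral zone in 10 libraries (log2 difference -2.23 ± 0.18, SE; edgeR adjusted p = 4.9e-13). Its difference between Glul-rich and other pericentral cells was 0.15 (edgeR adjusted p = 0.904). Kremen1 did not pass (-0.47; edgeR adjusted p = 0.220). Of 15 ligands and R-spondins 6 were listed, Wnt9b at 0 UMIs, Rspo3 at 6, Wnt2 and Wnt4 at 10 each and Wnt5a at 36. Wnt5b, with 318 UMIs, did not pass between zones (-0.04; edgeR adjusted p = 0.918) and was lower in Glul-rich cells (-1.78; 0.0497), a call kept in 2 of 20 alternatives.

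The metabolic genes known as Wnt-dependent and pericentral served for comparison. Of 11 that are neither landmarks nor members, 10 were pericentral with a median log2 difference of -4.52, against 11.7% of all genes. The 4 with the lowest adjusted p were Aldh3a2 (-4.85), Cyp2c37 (-5.41), Slc1a2 (-6.59) and Cyp2c29 (-4.52), and Car2 did not pass (-0.23). The periportal direction had 0 calls by edgeR and by DESeq2 and 0 at an unadjusted p under 0.05. Reads of the Cyp2c genes may be shared with close relatives. In Glul-rich cells 7 of 10 tested were higher, against 0.975% of all genes, with the lowest adjusted p for Slc1a2 (3.43), a glutamate transporter, Cyp2c37 (1.23), Rhbg, an ammonium transporter (3.20), and Cyp2a5 (1.05). Tbx3 and Lgr5 at 1.07 and 1.20 and Sp5 at 2.75 lie within the range of these 4, which were picked by adjusted p. The called Aldh3a2 stood at 0.44, and Car2 (0.63), Cyp2c29 (0.11) and Cyp27a1 (-0.05) were not called. By edgeR the rhythm test called 0 genes of any of these 5 lists. At an unadjusted p under 0.05 it had 2 of 10 receptors, 3 of 21 cytoplasmic and nuclear parts and 0 of 2 further inhibitors. It also had 1 of 2 ligands and 2 of 11 metabolic genes, against 2082 of 10790 genes in all. DESeq2 called 1 ligand and 1 metabolic gene.

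The genes most like a member were sought by Pearson's r over 80 values, the 8 parts of 10 libraries, on log2(CPM + 1) with each library's mean removed. The 80 values share libraries and the order itself, so r is a description. For Tbx3 they were Gstm1 (0.916), Slco1b2 (0.888) and Rpl37a (0.885) among 3913 genes. For Rnf43 they were Hsd17b4 (0.671), Ugt3a1 (0.637) and Cyp7b1 (0.634). The highest r was 0.499 for Tcf7l2 (Rtn4) and 0.409 for Lgr4 (Afg3l2). These 2 members varied little along the order, so a low r does not show that no gene followed them. The other 5 members had fewer than 300 UMIs and were not compared in this way.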

How the data were processed

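Polyadenylated RNA of single hepatocytes was measured in 10 libraries, and the authors deposited UMI counts per gene and cell, read as raw counts since all values are whole and cells differ in their totals. Per the labels' protocols, version 2 of the 10x Chromium 3' kit was used. The submitters' processing notes name Cell Ranger, mm10 and hg19, without versions or roles. The filter on cells is not given in the sources used here; deposited cells held 1048 to 10001 UMIs and 8.70% to 34.44% mitochondrial UMIs, and all were kept, possible doublets included. Of 14812 gene entries 14321 matched a GENCODE M21 symbol.

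Groups came from sample titles, and the library was the replicate. The members and lists were chosen with earlier results of these data known. UMIs were summed over all cells, over the outer parts (of 3) of the landmark order, or over Glul-rich and other pericentral cells, and tested in R 4.3.3 with TMM factors and the functions glmQLFit and glmQLFTest of edgeR 4.0.16 on genes with at least 30 UMIs, with Benjamini-Hochberg adjustment over all genes tested (threshold 0.05). TMM factors were 0.885 to 1.13 for libraries, 0.872 to 1.17 for zones and 0.802 to 1.31 for Glul-rich sums. Landmarks, and Glul among Glul-rich cells, did not enter counts of calls. Nkd1, below that minimum, had an exact sign-flip permutation test. Intervals are exact, at 95%, and floors are 3 counts. Scripts were tested on simulated data.

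All 9 members are named, and from each other list the called genes with the lowest adjusted p, up to 4 per direction, or else the 2 with the most UMIs; Ctnnb1 was added after its values were seen. Same-lettered libraries of ZT0 and ZT12 deviated together from their group means (r of 0.239 to 0.473). Differently lettered pairs had r of -0.309 to -0.106, which is no separate evidence, since deviations from a group mean sum to 0. Same-lettered libraries of these times also share an index column, and the 2 cannot be told apart. The letters in the titles were taken as a pairing on this basis. The letter block also joins ZT6A, ZT18A and ZT18B to these letters, although their index columns differ. With the letter as a replicate block 844 genes were rhythmic against 497 without it, and 0 members in both. Alternatives were DESeq2 1.42.0, other scalings, filters, zones, cell depths and left-out libraries, and 4 of them (without ZT0C, ZT12A and ZT12C, the pericentral zone alone, a fixed Glul share, ratios within libraries) were added after the data had been seen.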

Additional observations from a re-analysis of the deposited data

Results flagged for a closer look

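For Axin2, 1 library stood far from the others of the 10 in the difference between Glul-rich and other pericentral cells. In ZT6B that difference was -2.70 on the log2(CPM + 1) scale, since its Glul-rich cells held 0 Axin2 UMIs and its other pericentral cells 4. Those Glul-rich cells held 119372 UMIs of all genes, so that a single UMI stands for 8.38 CPM. Axin2 in the other pericentral cells of ZT6B was at 5.48 CPM, below that step. The count of 0 therefore does not show a lower level. The gap to the next library exceeded the 95% limit for an outlier among 10 values. Chance marks about 1 in 20 such sets, and no p is attached. Every member was screened in this way, both between zones and between Glul-rich and other pericentral cells. A single flag among so many sets can arise by chance.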

How the results depend on the processing

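Of the members, the pericentral calls of Tbx3, Lgr5, Axin2 and Rnf43 kept their direction and side of the threshold in all 22 alternatives that were run, and 0 members were rhythmic in any of 21. The calls of Sp5, Tcf7l2 and Lgr5 (in Glul-rich cells) that were lost are named in the report. Signs that turned were all of members not called: Lgr4 between zones with library totals alone (-0.0498), with 1 library left out (-0.0130 without ZT18A to 0.114 without ZT12B), Znrf3 between zones without ZT0C, ZT12A and ZT12C (0.0502), and Axin2 in Glul-rich cells of at least 2000 UMIs (-0.00880). In such deep cells Rnf43 passed (1.02).

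Counts over all genes moved more, and the cause was not tested. Rhythmic genes numbered 497, and 838 with DESeq2, 844 with the letter as a replicate block, 252 without both ZT18 libraries, 266 in the pericentral zone alone and 248 to 510 with 1 library left out. Zone-dependent rhythms numbered 8, and 0 with DESeq2, 3 at a mean of at least 3 CPM, 42 with at least 1 UMI, 3 without the 5% of cells with the most UMIs, 2 without both ZT18 libraries, 13 in the outermost of 8 parts, 47 with the letter by zone as a replicate block, and 0 to 49 with 1 library left out (49 without ZT0C, 0 without ZT18A). Genes called in Glul-rich cells numbered 353, and 165 with DESeq2 (1 member, 5 having no adjusted p), 109 with 10% of cells, 193 without ZT0C, ZT12A and ZT12C and 535 at a fixed Glul share, with 2 to 3 members when 1 library was left out. The replicate block changed no call of a member. Depth limits Nkd1 and Sp5 most, with 21 and 55 UMIs.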
